A study of Mus musculus with 8 samples.

Results

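The genes described here are 6 ligands and 4 receptors of the bone morphogenetic protein (BMP) and growth differentiation factor (GDF) family, *Bmp2*, *Bmp4*, *Bmp5*, *Bmp6*, *Bmp7*, *Gdf5*, *Bmpr1a*, *Bmpr1b*, *Acvr1* and *Bmpr2*. They were taken from the count table by gene symbol, and all 10 were found among its 54658 symbols. RNA-Seq was performed on primary murine articular chondrocytes, taken from the cartilage of femoral heads (wild-type mice, 3 weeks old). Whether the medium of these cultures held serum during treatment is not stated. One group of 4 samples received IL-1β at 1 ng/mL for 24 h, and the other group of 4 received vehicle for the same time. No line, transgene or deletion was involved. Whether the 4 samples of a group came from separate mice or cultures is not stated, so the p-values measure only the spread between these samples, which may be technical.

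BMPs and GDFs are secreted dimers of the TGF-β superfamily. They bring together type I receptors, such as the products of *Bmpr1a*, *Bmpr1b* and *Acvr1*, and type II receptors, such as the product of *Bmpr2*, and the type I kinase then phosphorylates SMAD1, SMAD5 and SMAD9, which enter the nucleus with SMAD4. In cartilage this pathway drives the formation and growth of skeletal elements, and *Gdf5* marks the cells that form joints. The comparison of IL-1β with vehicle asks which of these signals changed at the mRNA level when chondrocytes met an inflammatory cytokine.

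After IL-1β, *Gdf5* rose 4.69-fold while *Bmp7* fell 2.11-fold and *Bmp2* fell 1.51-fold. Among the receptors, *Bmpr1b* rose 1.43-fold and *Acvr1* rose 1.25-fold, and *Bmpr1a* fell 1.09-fold. The 4 remaining genes, *Bmp4*, *Bmp5*, *Bmp6* and *Bmpr2*, did not pass the test. A gene passed when its Benjamini-Hochberg adjusted p-value from edgeR's quasi-likelihood test was under 0.05 over the 14404 genes with more than 1 CPM, the count scaled to the library's total, in at least 4 samples. All 10 genes met this filter, and their CPM was above 1 in all 8 samples. Of the 10 genes, 3 were higher and 3 were lower, against a background of 40.2% of all genes tested that passed in either direction, 20.4% higher and 19.8% lower. *Gdf5* and *Bmp7* also changed more than 2-fold, and 5.21% of all genes tested passed and changed by that much. Thresholds of 2-fold and of a log2 fold change of 2 are both named for the RNA-Seq in the study, and of these 2 genes *Bmp7* lies below the stricter one. The median log2 fold change of the 10 genes was 0.07, and that of all genes tested was -0.0012. In these bulk samples, a change in the number of cells of one type and a change in RNA per cell cannot be told apart.

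**Figure D1:**
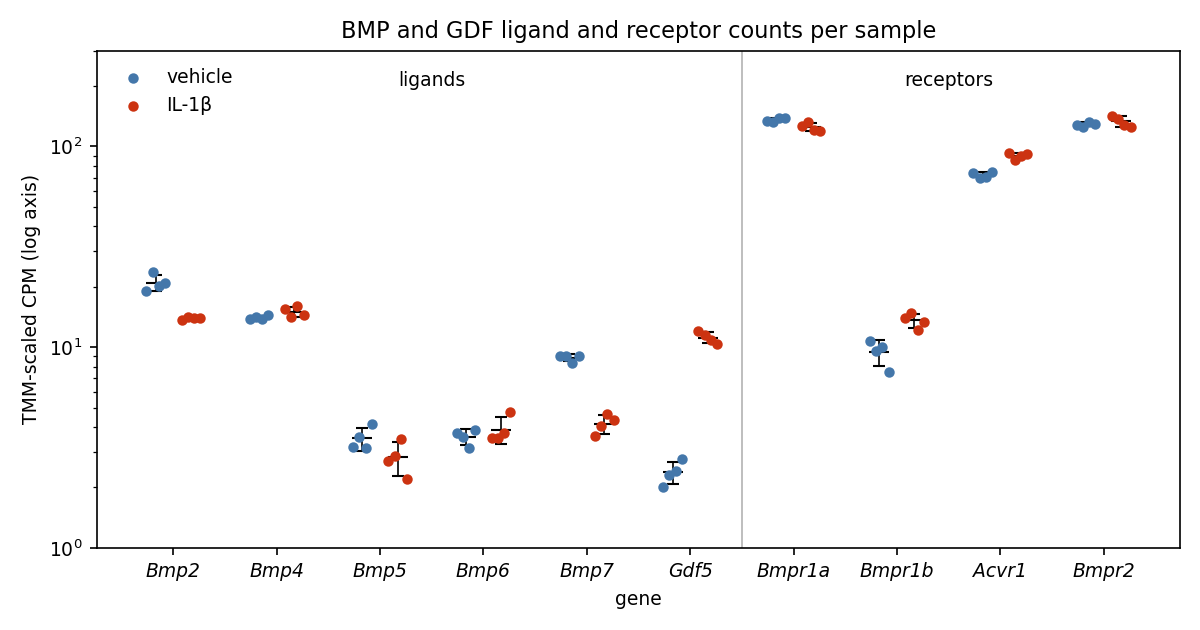
Abundance of the 10 genes in each of the 8 samples, as TMM-scaled CPM on a log axis. Points are samples, blue for vehicle and red for IL-1β, and bars are the mean ± SD of 4 samples. The IL-1β and vehicle samples are separate for *Bmp2*, *Bmp7*, *Gdf5*, *Bmpr1b* and *Acvr1* and overlap for the other genes.

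The study asks which mRNAs could be targets of miR-146a-5p, a miRNA of the inflammatory response that pairs with 3′ UTRs through bases 2 to 8, its seed. It took its candidates from genes lower after IL-1β that had conserved sites predicted by TargetScan. Here, each of the 10 genes was searched for such sites whatever its direction, and conservation was not examined. The search used the 3′ UTR of the longest protein-coding isoform (GENCODE vM21, GRCm38). The mature miRNA (RefSeq, GRCm38.p6, chromosome 11 from 43374435 to 43374456, minus strand) is shown with its seed in capitals, followed by the 3 sites that match all 7 seed bases, with the match in capitals, because they lie in the ligand that rose most and in the only receptor that fell.
miR-146a-5p: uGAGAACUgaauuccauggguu
*Gdf5*: tgcaggaaagAGTTCTCAgcaggcttac
*Bmpr1a*, first site: tatgaccagtAGTTCTCtggtacagagc
*Bmpr1a*, second site: aagcagggacAGTTCTCccacctcctgg

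The site of *Gdf5* is an 8mer, a seed match followed by A, at nucleotides 123 to 130 of a 3′ UTR of 520 nucleotides (chromosome 2 from 155941413 to 155941420, minus strand). The sites of *Bmpr1a* are 7mers at nucleotides 2468 to 2474 and 2996 to 3002 of a 3′ UTR of 3810 nucleotides (chromosome 14 from 34412070 to 34412076 and from 34411542 to 34411548, minus strand). *Bmpr1a* also had 4 matches to only 6 bases of the seed, *Bmp2* had 1 and *Bmpr2* had 2, and no match was found for *Bmp4*, *Bmp5*, *Bmp6*, *Bmp7*, *Bmpr1b* or *Acvr1*. For the comparison with all genes, the 7mer kind also took in matches to 6 seed bases followed by A, which none of the 10 genes had. A site of the 7mer or 8mer kind was present in 2 of the 10 genes, against 20.8% of the 11930 genes tested with an annotated 3′ UTR. An 8mer was present in 1 of the 10, against 4.64%. Of the 2 genes with a 7mer or 8mer site, *Gdf5* rose and *Bmpr1a* fell. A match in these letters is a description and not evidence that the miRNA binds there.

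*Gdf5* (ENSMUSG00000038259.4) encodes a ligand of joint-forming cells that signals mainly through the receptor encoded by *Bmpr1b*. It lies on chromosome 2 from 155941023 to 155945367 (GRCm38, minus strand). IL-1β replicates 1 to 4 had 12.0, 11.5, 10.8 and 10.4 CPM after scaling by TMM, and vehicle replicates 1 to 4 had 2.02, 2.31, 2.42 and 2.76 CPM. The lowest IL-1β sample was thus far above the highest vehicle sample. The IL-1β samples averaged 11.2 ± 0.729 CPM and the vehicle samples 2.38 ± 0.306 CPM (SD, n = 4 each). On the log2 scale the difference was 2.23 (SE 0.125, edgeR adjusted p = 7.14e-15). The 95% confidence interval of the fold change was 3.93 to 5.60. The vehicle values rest on 34 to 42 reads per sample, and the IL-1β values on 133 to 182. An annotated gene on the opposite strand, *Gm15557*, shares 40.3% of the exon bases of *Gdf5*. No more than 3 reads in any sample were assigned to it. Whether reads were counted by strand, and how reads in the shared part were assigned, is not given in the sources used here.

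*Bmp7* (ENSMUSG00000008999.7, chromosome 2 from 172868012 to 172940321) encodes a ligand also known as osteogenic protein, which raises matrix synthesis in chondrocytes. IL-1β replicates 1 to 4 had 3.60, 4.04, 4.63 and 4.33 CPM. Vehicle replicates 1 to 4 had 9.0, 9.01, 8.34 and 9.07 CPM, so that every IL-1β sample lay below every vehicle sample. The vehicle samples averaged 8.86 ± 0.343 CPM and the IL-1β samples 4.15 ± 0.438 CPM (SD, n = 4 each). On the log2 scale the difference was -1.08 (SE 0.114, edgeR adjusted p = 6.55e-09). The 95% confidence interval of the fold reduction was 1.80 to 2.49, which includes the 2-fold threshold.

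*Bmp2* (ENSMUSG00000027358.6, chromosome 2 from 133552159 to 133562885) encodes a ligand of chondrocyte maturation and bone formation. IL-1β replicates 1 to 4 had 13.7, 14.1, 14.0 and 14.0 CPM. Vehicle replicates 1 to 4 had 19.0, 23.7, 20.2 and 20.8 CPM, all above the IL-1β samples and more widely spread. The IL-1β samples averaged 13.9 ± 0.158 CPM and the vehicle samples 20.9 ± 2.01 CPM (SD, n = 4 each). The log2 difference was -0.59 (SE 0.0762, edgeR adjusted p = 2.44e-07), a fold reduction with a 95% confidence interval of 1.35 to 1.68.

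The other 3 ligands did not pass the test, and their groups overlapped. *Bmp4* (ENSMUSG00000021835.15, chromosome 14 from 46383520 to 46390669), whose product is the closest relative of that of *Bmp2*, averaged 15.0 ± 0.886 CPM in IL-1β samples and 14.0 ± 0.308 CPM in vehicle samples (SD, n = 4 each), a log2 difference of 0.10 with a 95% confidence interval of -0.06 to 0.25. This interval leaves out a change of the size seen for *Bmp2* in either direction. *Bmp5* (ENSMUSG00000032179.7, chromosome 9 from 75775364 to 75900310) and *Bmp6* (ENSMUSG00000039004.6, chromosome 13 from 38345107 to 38500302) encode ligands close to that of *Bmp7* and were the least abundant of the 10 genes with IL-1β by CPM. *Bmp5* averaged 2.82 ± 0.539 CPM with IL-1β against 3.51 ± 0.467 CPM (log2 difference -0.30, 95% confidence interval -0.64 to 0.05). *Bmp6* averaged 3.89 ± 0.587 CPM with IL-1β against 3.59 ± 0.323 CPM (log2 difference 0.12, 95% confidence interval -0.19 to 0.42). At 30 to 67 reads per sample, these intervals include a fall of *Bmp5* as large as that of *Bmp2* and a rise of *Bmp6* as large as that of *Acvr1*. *Gm26903*, on the opposite strand, shares 46.7% of the exon bases of *Bmp5* and held no more than 3 reads in any sample. *Bmp6* shares 5.74% of its exon bases with *Txndc5* on the opposite strand, whose means were 228 CPM (IL-1β) and 253 CPM (vehicle). How reads in these shared bases bear on the low *Bmp6* counts is not known.

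Among the type I receptors, *Bmpr1b* (ENSMUSG00000052430.15, chromosome 3 from 141837136 to 142169425) encodes the receptor that GDF5 prefers. IL-1β replicates 1 to 4 had 14.0, 14.9, 12.2 and 13.4 CPM, and vehicle replicates 1 to 4 had 10.7, 9.53, 10.1 and 7.49 CPM. All IL-1β samples were above all vehicle samples, with vehicle replicate 4 the lowest. The log2 difference was 0.52 (SE 0.102, edgeR adjusted p = 0.000123), a fold rise with a 95% confidence interval of 1.24 to 1.66. *Gdf5* and *Bmpr1b*, a ligand and its preferred receptor, thus both rose. Other ligands and their receptors did not all move together. *Bmp7* fell while *Acvr1* rose. *Bmp2* and *Bmpr1a* both fell, and *Bmp4* did not pass.

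*Acvr1* (ENSMUSG00000026836.15, chromosome 2 from 58388644 to 58567157) encodes the type I receptor ALK2, which serves the ligands of the BMP7 group. IL-1β replicates 1 to 4 had 92.5, 85.8, 89.4 and 91.8 CPM, and vehicle replicates 1 to 4 had 73.9, 69.3, 70.5 and 74.7 CPM, without overlap. The log2 difference was 0.32 (SE 0.0389, edgeR adjusted p = 9.55e-08), a fold rise with a 95% confidence interval of 1.18 to 1.32. *Bmpr1a* (ENSMUSG00000021796.15, chromosome 14 from 34410734 to 34503341) encodes the main type I receptor of BMP2 and BMP4. IL-1β replicates 1 to 4 had 127, 132, 120 and 120 CPM, and vehicle replicates 1 to 4 had 134, 132, 138 and 138 CPM. IL-1β replicate 2 lay just above the lowest vehicle sample (132.0 against 131.9 CPM), so the groups overlapped by 1 sample. The log2 difference of -0.12 (SE 0.0341, edgeR adjusted p = 0.00624) is the smallest of the 6 changes that passed.

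*Bmpr2* (ENSMUSG00000067336.6, chromosome 1 from 59763400 to 59879014) encodes a type II receptor that BMPs and GDFs share. Its IL-1β samples averaged 133 ± 8.12 CPM and its vehicle samples 129 ± 2.91 CPM (SD, n = 4 each), and the groups overlapped. Its log2 fold change was 0.04 (95% confidence interval -0.03 to 0.12, adjusted p = 0.385 from edgeR), so a change of the size seen for *Acvr1* lies outside the interval. Groups did not overlap for 5 of the 10 genes, 3 higher and 2 lower, against 36.8% of all genes tested.

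**Figure D2:**
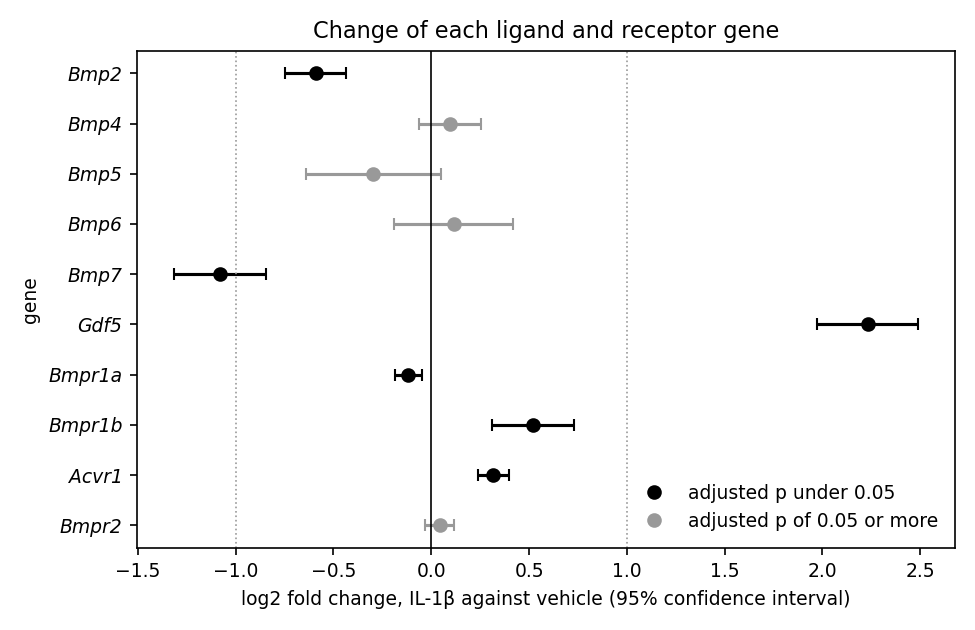
Log2 fold change of IL-1β against vehicle for each of the 10 genes, with the 95% confidence interval from edgeR's quasi-likelihood fit (4 samples per group). Black points passed at an adjusted p-value under 0.05, grey points did not, and dotted lines mark log2 fold changes of -1 and 1. *Gdf5* at 2.23 and *Bmp7* at -1.08 lie beyond the dotted lines.

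To compare levels between genes, CPM was divided by gene length in kilobases (RPKM). In vehicle samples the order of mean RPKM was *Bmpr1a* (21.3), *Acvr1* (14.9), *Bmpr2* (7.18), *Bmp4* (6.25), *Bmp2* (5.89), *Bmp7* (2.20), *Bmpr1b* (1.58), *Gdf5* (1.03), *Bmp6* (0.920) and *Bmp5* (0.872). The neighbours whose sample ranges overlapped were *Bmp4* with *Bmp2*, *Gdf5* with *Bmp6* and *Bmp6* with *Bmp5*. Thus *Bmp4* and *Bmp2* led the 6 ligands in vehicle-treated chondrocytes, and *Gdf5* was among the lowest of the 6. Of further ligands of the family, *Gdf15* (56.7 RPKM) and *Gdf10* (31.4 RPKM) exceeded *Bmp4* and *Bmp2* in vehicle samples. *Bmp3*, *Bmp8a*, *Gdf6* and *Gdf11* did not. With IL-1β, *Gdf5* reached 4.82 ± 0.314 RPKM (SD, n = 4) and stood above *Bmp2* (3.92 ± 0.0443 RPKM) and below *Bmp4* (6.67 ± 0.394 RPKM), with no overlap of samples between these neighbours. The order of *Gdf5* and *Bmp2* depends on the division by length: of the ligand counts with IL-1β, not divided by length, *Bmp2* held 27.3% and *Gdf5* 21.9%. *Bmp7* (1.03 ± 0.109 RPKM) then overlapped with *Bmp6* (0.996 ± 0.150 RPKM), and *Bmpr1a* (19.7 ± 0.897 RPKM) with *Acvr1* (18.6 ± 0.625 RPKM). *Bmpr2* (7.41 ± 0.452 RPKM) and *Bmp4* also overlapped. RPKM divides by the length of all annotated exons, which for *Bmpr2* is 17983 bases. This length includes bases shared with genes on the opposite strand, 40.3% for *Gdf5* and 46.7% for *Bmp5*. If reads in the shared bases were left unassigned, the RPKM and shares of *Gdf5* and *Bmp5* would be too low.

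The summed RPKM of the 6 ligands was 18.1 ± 0.482 (SD, n = 4) with IL-1β and 17.2 ± 0.839 (SD, n = 4) with vehicle, with ranges of 17.6 to 18.7 and 16.3 to 18.0 that overlapped. The make-up of this sum differed more than its size. *Gdf5* made up 26.6% ± 1.69 (SD, n = 4) of it with IL-1β and 5.97% ± 0.648 with vehicle. *Bmp7* made up 5.70% ± 0.588 with IL-1β and 12.9% ± 0.571 with vehicle, and *Bmp2* made up 21.6% ± 0.709 and 34.3% ± 2.00. *Bmp4* held 36.8% ± 1.27 with IL-1β and 36.4% ± 1.21 with vehicle. The RPKM of *Gdf5* was 4.72 ± 0.801 times that of *Bmp7* with IL-1β and 0.466 ± 0.0622 times with vehicle (SD, n = 4), so the order of these ligands was exchanged.

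Among the receptors, *Bmpr1a* made up 41.0% ± 1.17 (SD, n = 4) of the summed receptor RPKM with IL-1β and 47.4% ± 0.623 with vehicle, and *Acvr1* made up 38.8% ± 1.68 and 33.2% ± 0.823. *Bmpr1b* stayed a small share, at 4.76% ± 0.294 with IL-1β and 3.52% ± 0.527 with vehicle. The RPKM of *Bmpr1a* was 8.63 ± 0.412 times that of *Bmpr1b* with IL-1β and 13.7 ± 2.44 times with vehicle. Vehicle replicate 4, where *Bmpr1b* was lowest, had the highest of these ratios, 17.3. Without division by length, *Acvr1* held 24.9% of the receptor counts with IL-1β and 20.8% with vehicle, *Bmpr1a* 34.5% and 39.1%, and *Bmpr2* 36.8% and 37.3%, so *Bmpr2* then exceeded *Acvr1* in both groups and *Bmpr1a* with IL-1β. The shares and ratios are given as descriptions, without a test.

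**Figure D3:**
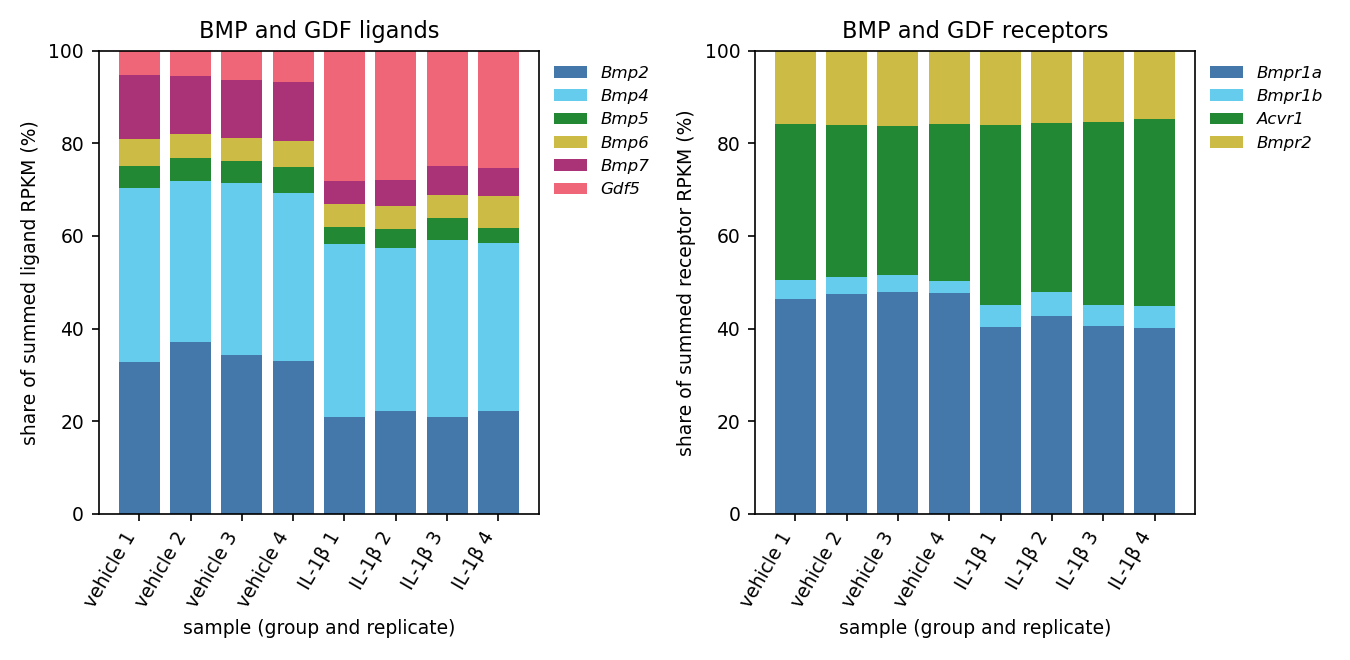
Share of each gene in the summed RPKM of the 6 ligands (left) and the 4 receptors (right), in percent, as 1 stacked bar for each of the 8 samples. The red block of *Gdf5* spans 5.32 to 6.70% in vehicle samples and 24.9 to 28.2% in IL-1β samples.

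RefSeq promoter windows of 300 bases around a start site (GRCm38.p6) were matched for 7 of the 10 genes (*Bmp4*, *Bmp5*, *Bmp6*, *Bmpr1a*, *Bmpr1b*, *Acvr1* and *Bmpr2*), with 3 start sites for *Bmpr1b*. All 3 windows of *Bmpr1b* lie inside the annotated span of the gene, and some of them overlap. On both strands, the consensus site of NF-κB and the AP-1 motif TGANTCA were in none of these 9 windows, against 4.51% and 7.81% of all 32851 promoters in the table. With so few windows and such low shares, finding none is not a result about these genes. The motif GGCGCC, bound by the SMADs of the BMP pathway, was in the windows of *Bmpr1a* and *Bmpr2*, against 11.9% of all promoters. These windows held 79.3% and 59.3% G and C, and that of *Acvr1*, without the motif, held 83.7%. The share over all promoters does not take base composition into account. The promoters of *Bmp2*, *Bmp7* and *Gdf5* were not analysed here.

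The rest of the pathway was read from a list of 66 genes, of which 49 were tested. Of these, 14 were higher and 25 were lower after IL-1β, and the median log2 fold change was -0.27. Among all genes tested, 20.4% were higher, 19.8% were lower and 40.2% passed in either direction, and the counts by class that follow are to be read against these shares. Among 6 further ligands tested, *Bmp3*, which encodes a ligand that counters other BMPs, rose from 8.49 ± 0.392 CPM (SD, n = 4) to 17.2 ± 1.02 CPM (log2 fold change 1.01). *Gdf10*, also called *Bmp3b*, fell from 164 ± 4.6 to 20.7 ± 1.89 CPM (log2 fold change -2.97), *Bmp8a* had a log2 fold change of -1.99, and *Gdf15*, a stress-response ligand, had one of -0.80. The other ligands, *Gdf6* and *Gdf11*, did not pass.

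Of 10 other receptors and co-receptors tested, 4 were higher and 3 were lower (40.2% of all genes passed in either direction). *Tgfbr3*, which encodes the co-receptor betaglycan, rose from 74.1 ± 2.33 CPM (SD, n = 4) to 276 ± 2.01 CPM (log2 fold change 1.90), and *Acvr1b*, an activin type I receptor gene, had a log2 fold change of 1.00. *Rgma*, which encodes a BMP co-receptor, and *Neo1*, which encodes the receptor that binds RGM proteins, had log2 fold changes of -0.39 and -0.50. Of 8 SMAD and SMURF genes, 3 were higher and 3 were lower (40.2% of all genes passed), with none beyond 2-fold (5.21% of all genes). *Smad9*, the gene of a SMAD that BMP receptors phosphorylate, fell most in its class (log2 fold change -0.86), while *Smad1* and *Smad5* did not pass. The inhibitory SMAD genes *Smad6* and *Smad7* had log2 fold changes of -0.31 and -0.12, *Smad4* had one of 0.13, and the ubiquitin ligase genes *Smurf1* and *Smurf2* had 0.50 and 0.10.

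Of 13 extracellular antagonists tested, 6 were higher and 5 were lower, against 20.4% higher and 19.8% lower among all genes tested. *Fstl1*, which encodes a secreted follistatin-like glycoprotein, rose from 77.9 ± 2.42 CPM (SD, n = 4) to 342 ± 8.18 CPM (log2 fold change 2.13). The DAN-family genes *Nbl1* and *Grem1*, which encode proteins that bind BMPs, had log2 fold changes of 1.59 and 1.25. *Chrdl1* and *Chrd*, of the chordin family, had log2 fold changes of -1.34 and -0.70, and *Twsg1*, a partner of chordin, had one of -0.50. *Nog*, which encodes noggin, did not pass (adjusted p = 0.149 from edgeR).

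Of 12 genes that BMP signaling is known to induce, 11 were lower after IL-1β and none was higher, against 19.8% lower among all genes tested. Their median log2 fold change was -0.68. The list was chosen with earlier results of these data known and does not hold every gene that BMP signaling induces. Whether BMP signaling itself changed was not tested. *Id4*, an inhibitor of basic helix-loop-helix factors, fell from 8.15 ± 0.214 to 3.57 ± 0.751 CPM (SD, n = 4, log2 fold change -1.19). Its relatives *Id1*, *Id2* and *Id3* were more abundant, with vehicle means of 262, 97.2 and 295 CPM. They fell less, with log2 fold changes of -0.48, -0.49 and -0.27. *Sp7*, which encodes the osteoblast factor osterix, fell from 56.3 ± 3.58 to 20.8 ± 2.91 CPM (log2 fold change -1.42), and *Dlx5* had a log2 fold change of -1.40. *Msx1* was the target that did not pass. *Sp7*, *Dlx5* and *Runx2* are also genes of hypertrophic chondrocytes and osteoblasts.

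**Figure D4:**
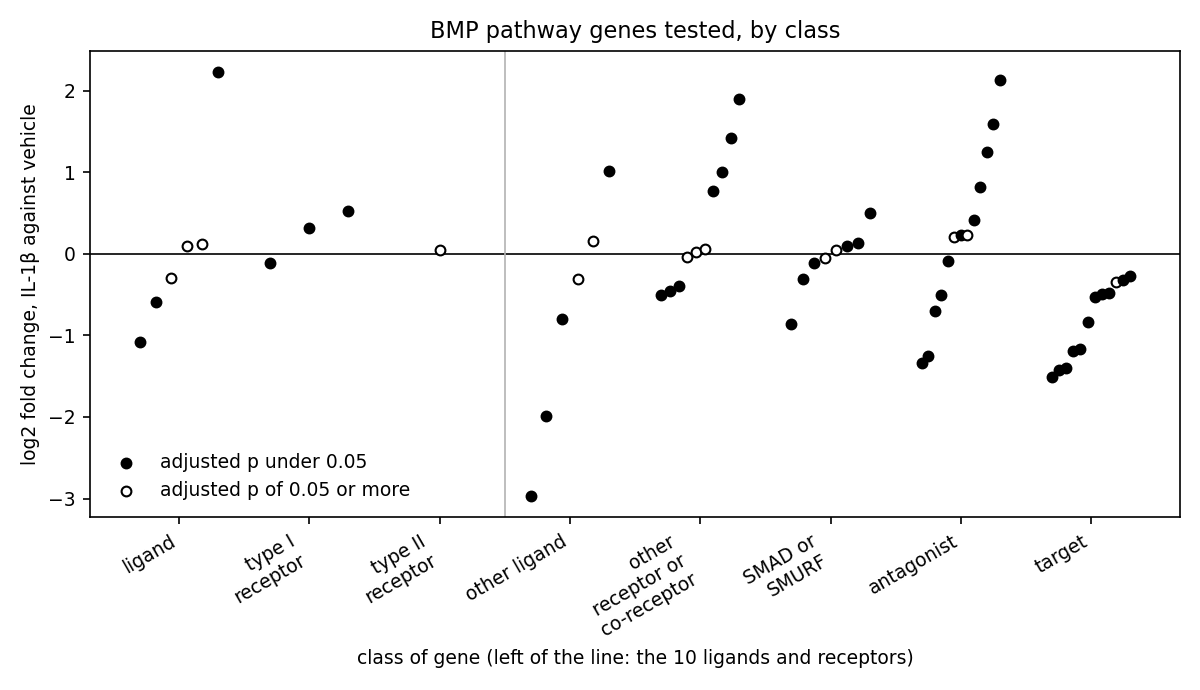
Log2 fold change of IL-1β against vehicle for the 10 ligand and receptor genes (left of the line) and the 49 other BMP pathway genes tested, by class. Each point is 1 gene, filled where the adjusted p-value was under 0.05. The 12 genes listed as targets all lie below 0, and the antagonists span -1.34 to 2.13.

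Markers of other cell types were measured beside these changes. Their counts are to be read against 19.8% lower and 20.4% higher among all genes tested. Of 9 articular chondrocyte markers, 8 were lower with IL-1β and *Prg4*, the superficial zone gene that encodes lubricin, was higher, and their summed abundance was 6131 to 6656 CPM with IL-1β and 16946 to 17524 CPM with vehicle. Of 6 markers of hypertrophic chondrocytes and osteoblasts, 4 were tested and all 4 were lower, and the sum was 42.9 to 46.3 CPM against 170 to 181 CPM. Of 5 fibroblast markers, the 2 tested (*Pdgfra* and *Cd34*) were higher, and the sum was 56.9 to 60.8 CPM against 37.6 to 40.4 CPM. The sum of 5 macrophage and leukocyte markers was 15.9 to 18.9 CPM against 11.5 to 12.6 CPM, with *Cd68* higher and *Lyz2* lower, while *Ptprc*, which defines leukocytes, was at 0 to 0.433 CPM. The sums of the endothelial, skeletal muscle and erythroid markers were below 2 CPM in every sample. The part of these marker changes in the changes of *Gdf5*, *Bmp7*, *Bmp2* and the target genes was not tested.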

How the data were processed

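RNA-Seq of 4 IL-1β and 4 vehicle samples was analysed, grouped by the titles in the labels. The authors used cutadapt for trimming, STAR for alignment (mm10) and featureCounts for counting on GENCODE vM20. The version of STAR differs between the methods and the submitters' processing notes (2.4.2a in the latter). The authors deposited unscaled whole-number counts by gene symbol and a column of gene lengths. Whether the batch correction named in the methods precedes these counts is not stated. The lengths of all 10 genes equalled the merged exon lengths of GENCODE vM21.

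Total counts were 10992355 to 17456063 per sample, and *Gm26917* held 13.2 to 14.6% of them. TMM factors lay between 0.984 and 1.01. CPM uses total counts scaled by TMM. Counts were tested by edgeR 4.0.16 (limma 3.58.1, R 4.3.3), with treatment as the only term and 20.9 prior degrees of freedom. Confidence intervals are for single genes and not adjusted. Samples of 1 group differed by a chi-square per degree of freedom of 1.83 to 5.25, and samples of different groups by 45.5 to 56.6, where 1 is counting error, so no pair agreed within counting error and all 8 were kept as separate samples. Sequences and figures used Python 3.11.15, pandas 2.3.3 and matplotlib 3.10.9.

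The genes, the pathway lists and the markers were chosen with earlier results of these data known. All 10 genes are named, and from each class of the pathway list up to 3 that rose and 3 that fell most, among genes past the test with groups that did not overlap and at least 5 CPM in the higher group. *Gdf6*, *Gdf11*, *Acvr2a*, *Acvr2b*, *Smad1*, *Smad5*, *Nog*, *Id1*, *Id2*, *Id3*, *Runx2* and *Msx1* were named after their values were seen. The alternatives were DESeq2 1.42.0, its size factors or the total library size instead of TMM, a looser and a stricter filter on low counts, the replicate number as a block, 1 factor of unwanted variation after RUVs, coded in R, and each sample left out in turn.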

Additional observations from a re-analysis of the deposited data

Results flagged for a closer look

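In 68 groups of 4 values (the 10 ligand and receptor genes, the 23 pathway genes named by rule and the library totals, by treatment), 4 held a sample further from the other 3 than Dixon's 95% critical value allows, where about 1 group in 20, or 3.4 here, would do so by chance. *Bmp7* was low in vehicle replicate 3, at 8.34 CPM, where the other vehicle samples reached up to 9.07 CPM. *Smad9* was also low there, at 69.1 CPM, the others lying between 73.7 and 74.0 CPM. *Dlx5* was high there, at 25.0 CPM, the others lying between 20.1 and 20.4 CPM. *Id4* was high in IL-1β replicate 2, at 4.69 CPM, the others lying between 3.06 and 3.33 CPM. Leaving out any 1 sample put the log2 fold change of *Bmp7* between -1.14 and -1.03.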

How the results depend on the processing

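Under 15 alternatives, each of the 10 genes kept its direction and its side of the adjusted p-value of 0.05, and the counts of calls among the 10 genes and in the pathway list stayed within 1.5 times their values. The log2 fold change of *Gdf5* lay between 2.15 and 2.31, that of *Bmp7* between -1.14 and -1.03, that of *Bmp2* between -0.64 and -0.52, that of *Bmpr1b* between 0.43 and 0.59, that of *Acvr1* between 0.30 and 0.34 and that of *Bmpr1a* between -0.14 and -0.10. The highest adjusted p-value of *Bmpr1a* was 0.0313, with 1 sample left out. With the replicate number as a block (replicate block), the log2 fold change of *Gdf5* was 2.23. The numbers are not stated to mark shared cultures, so they were not taken as pairs. Deviations from the group means had a correlation across genes of -0.0699 to 0.0416 between samples of the same number. Between samples of different numbers it was -0.0850 to 0.0909. Counting error in genes with few reads also keeps such correlations low, so they cannot show whether the samples were paired. As shares of counts in place of RPKM, *Gdf5* made up 21.9% of the ligand sum with IL-1β and 4.46% with vehicle, *Bmp2* 27.3% and 39.2%, which puts *Bmp2* above *Gdf5* with IL-1β, and of the receptor sum *Acvr1* made up 24.9% and 20.8% and *Bmpr2* 36.8% and 37.3%. The reads behind *Bmp5*, *Bmp6* and vehicle-treated *Gdf5* limit their precision, and 3 counts equal 0.172 to 0.273 CPM. These limits cover counting error only.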
